A study of Mus musculus with 16 samples.

Results

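The 32 genes described here encode nuclear receptors and were chosen by symbol from a list. The list does not cover the whole family, and *Nr1d1*, *Nr1d2* and *Ppara* are not on it. All 32 were rows of the liver expression table, out of 17003 genes, and 31 of them averaged 0.1 FPKM or more over all 16 mice. The remaining member, *Vdr*, which encodes the vitamin D receptor, was listed above 0 in 5 mice and reached 0.03 FPKM at most. FPKM is the number of fragments scaled to transcript length and to the size of the library, so that levels can be set side by side between genes.

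Livers came from male mice 8 weeks old, fed normal chow and labelled as fed. The 8 *Fgl1* LWT mice, labelled Fgl1 WT, carried floxed *Fgl1* alleles without CRE. The 8 *Fgl1* LKO mice were littermates with the same floxed alleles and a transgene that expresses CRE from the albumin promoter. The paper describes the resulting loss of *Fgl1*, which encodes a secreted liver protein, as specific to hepatocytes. Each library was made from polyA RNA of 1 mouse, and the comparison asks how the loss of *Fgl1* in hepatocytes affects liver transcription. The methods give 7 mice per genotype and a legend gives 8, and 16 mice were analysed here. The mouse numbers in the labels fall into 4 runs. The run 36 to 38 consists of 3 *Fgl1* LWT mice, the run 48 to 55 holds 1 *Fgl1* LWT and 3 *Fgl1* LKO mice, the run 60 to 64 holds 2 and 3, and the run 69 to 72 holds 2 and 2. What a run stands for is not labelled.

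Nuclear receptors are transcription factors, most of which bind a small lipophilic ligand such as a steroid, a bile acid, an oxysterol or a retinoid. Many pair with a retinoid X receptor and sit on repeats of the sequence AGGTCA, while others bind as homodimers or as single molecules. In the liver they sense bile acids, sterols, fatty acids, drugs and hormones and set the level of the enzymes and transporters that handle these compounds.

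The table passed the checks of tissue and genotype. All 6 hepatocyte markers were present, with a summed level of 50473 to 90881 FPKM per mouse. *Fgl1* was between 157.8 and 1331 FPKM in *Fgl1* LWT mice and between 13.2 and 90.0 FPKM in *Fgl1* LKO mice, without overlap (two-sided exact permutation p = 0.000155, which is the lowest value possible with 8 against 8). Its log2 difference was -3.11 (limma, adjusted p = 0.0725). Summed over all genes, FPKM lay between 673153 and 786188 per mouse. Depth in reads is unknown, and no counting error can be given. In 3 libraries more of the highest or lowest values were found than in the rest. *Fgl1* LKO 8 held the highest or lowest of the 16 values for 30.4% of all genes tested, *Fgl1* LWT 8 for 24.4% and *Fgl1* LWT 2 for 21.5%. Among the 31 members, they held 11, 7 and 5 of these extremes. *Fgl1* LWT 7 also held 7 (12.9% of all genes) and *Fgl1* LKO 4 held 5 (9.15% of all genes).

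Sequences upstream of the start were taken for the members from RefSeq (GRCm38.p6, where the deposited values rest on mm39), 250 bases each. They matched 29 of the 32 members by gene number, with 45 promoters, and *Nr3c1*, *Hnf4g* and *Thra* had none in the table. The pair below belongs to *Nr0b2* and *Nr1i3*, which were among the 3 most variable members between mice. Both lie on the plus strand, *Nr0b2* at chr4:133553126-133553375 and *Nr1i3* at chr1:171213720-171213969, and both are written 5′ to 3′ up to the base before the start. Capitals mark matches on either strand to 4 motifs, namely CACGTG, the E-box, then AGGTCA, the core element of nuclear receptors, then TCAAGG, the beginning of the longer element bound by single receptors such as *Nr5a2* and *Esrra*, and TATAAA, the TATA box.
Nr0b2: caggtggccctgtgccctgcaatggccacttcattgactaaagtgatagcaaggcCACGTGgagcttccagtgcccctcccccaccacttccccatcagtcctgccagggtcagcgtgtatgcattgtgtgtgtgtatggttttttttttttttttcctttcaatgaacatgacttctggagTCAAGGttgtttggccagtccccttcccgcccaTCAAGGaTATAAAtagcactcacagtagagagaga
Nr1i3: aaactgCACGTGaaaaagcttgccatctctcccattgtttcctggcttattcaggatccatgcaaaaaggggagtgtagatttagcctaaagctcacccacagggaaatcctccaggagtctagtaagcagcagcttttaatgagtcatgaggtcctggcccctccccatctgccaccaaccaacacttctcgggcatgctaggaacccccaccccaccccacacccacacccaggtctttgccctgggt

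The *Nr0b2* window held CACGTG beginning 195 bases upstream of the start, TCAAGG at 68 and at 35 bases, and TATAAA at 28 bases. The *Nr1i3* window held CACGTG at 244 bases and no match to the other three. CACGTG was found for 4 members (*Nr0b2*, *Nr1i3*, *Rara* and *Thrb*), in 4 of the 45 member promoters and in 6.02% of all 32851 promoters. AGGTCA was found for 8 members, in 9 of the 45 member promoters (14.0% of all promoters). TCAAGG was found for 5 members, in 5 of the 45 (12.5% of all promoters), and TATAAA for 4, in 4 of the 45 (12.4%). AGGTCA and TCAAGG share the letters AGG where the former continues the latter. A match is a description of these letters only.

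Levels spanned more than 3 orders on the log10 scale, from *Hnf4a* to *Hnf4g*. *Hnf4a*, which encodes the receptor that keeps hepatocytes differentiated, had the highest mean of all members with 178 FPKM. In *Fgl1* LWT mice it ranged from 117 to 206 FPKM (median 159), and in *Fgl1* LKO mice from 141 to 294 FPKM (median 180). The ranges overlapped, *Fgl1* LKO 8 was the highest mouse and *Fgl1* LWT 8 the lowest, and its paralog *Hnf4g* had a mean of 0.12 FPKM. *Rxra*, the main partner of the lipid-sensing receptors in liver, came next with a mean of 107 FPKM, between 78.9 and 119 FPKM (median 105) in the *Fgl1* LWT group and between 78.4 and 144 FPKM (median 109) in *Fgl1* LKO mice. *Nr1h4*, the bile acid receptor FXR, followed with a mean of 64.7 FPKM, between 50.0 and 84.1 FPKM (median 57.0) in the *Fgl1* LWT group and between 54.0 and 77.5 FPKM (median 68.5) in *Fgl1* LKO mice. These 3 genes made up 50.2% of the summed mean level of the members, which was 694 FPKM. At least 10 FPKM on average was reached by 13 members and at least 1 FPKM by 28. The 3 retinoid X receptors differed in mean level, with 107 FPKM for *Rxra*, 12.3 for *Rxrb* and 3.16 for *Rxrg*.

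**Figure D1:**
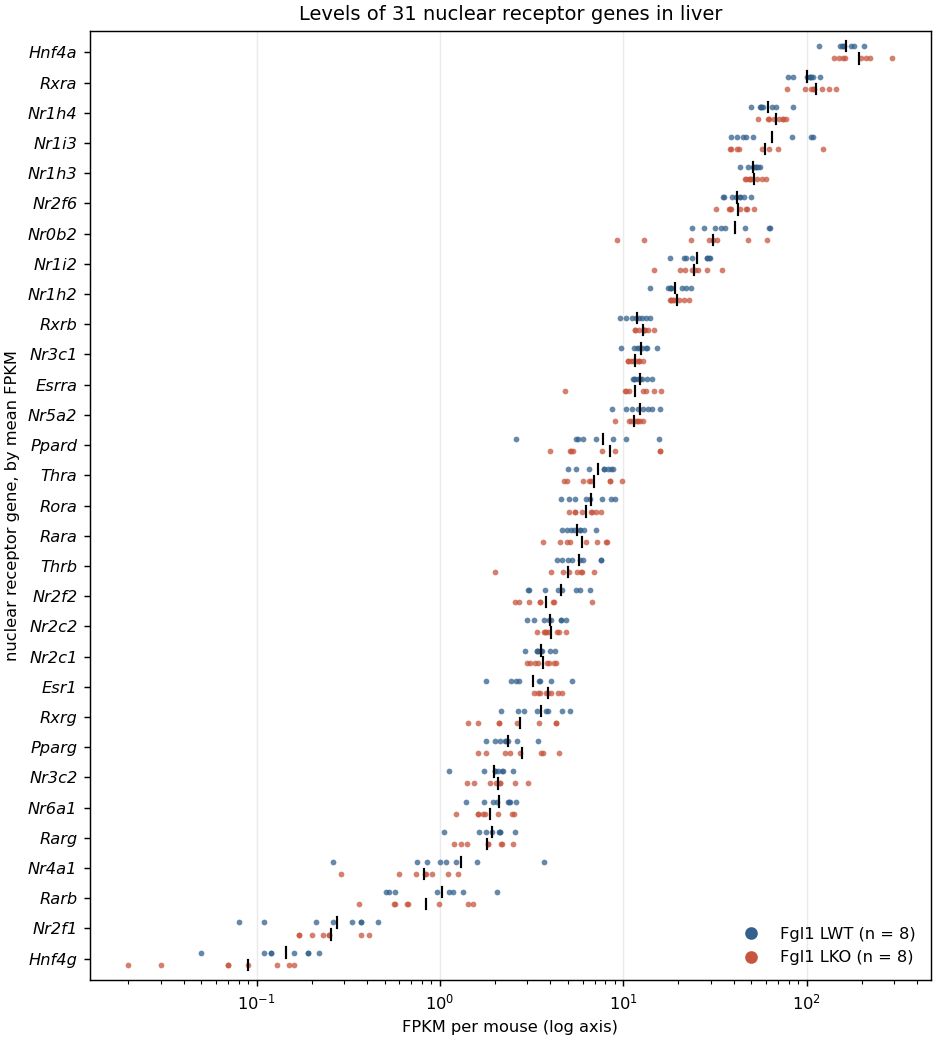
FPKM (log axis) of 31 nuclear receptor genes, 1 point per mouse, with *Fgl1* LWT mice above and *Fgl1* LKO mice below for each gene and black bars at the group means (n = 8 each). The genotypes overlapped for all 31 genes, and *Hnf4a*, *Rxra* and *Nr1h4* had the highest means.

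No difference between the genotypes was detected for any member. Of the 31 members tested, 0 passed an adjusted p of 0.05 in limma (0% of all 12770 genes), 0 had an unadjusted p under 0.05 (7.01% of all genes), and 0 had an exact permutation p under 0.05 (7.06% of all genes). The groups did not overlap for 0 members (0.0157% of all genes). The absence of a call does not show equal levels, since *Fgl1* itself had an adjusted p of 0.0725 in the same limma fit. The mean was higher in *Fgl1* LKO mice for 14 members and lower for 17, with a median log2 difference of -0.06 against 0.01 over all genes. The smallest p-values in limma belonged to *Esr1*, *Rxrg* and *Hnf4g*. The 95% interval of the difference of log2(FPKM + 1) lay within 0.585, a 1.5-fold change of FPKM + 1, for 26 of the 31 members, and for *Nr0b2* it reached -1.18. For members at low levels the same limit allows a larger change of FPKM, and *Hnf4g*, whose interval lay within it, had a ratio of group means (LKO over LWT) of 0.62.

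**Figure D2:**
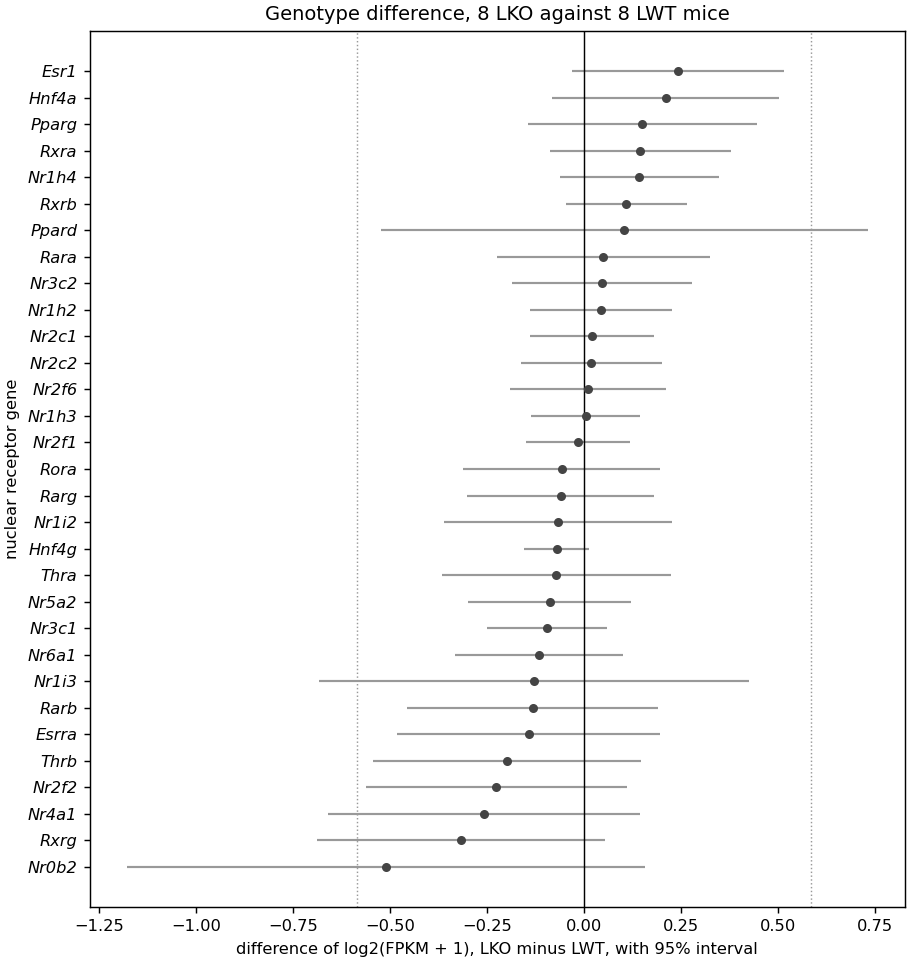
Difference of log2(FPKM + 1) between 8 *Fgl1* LKO and 8 *Fgl1* LWT mice (LKO minus LWT) for 31 nuclear receptor genes, with the 95% interval from limma. All intervals include 0, *Nr0b2* has the widest on the negative side, and dotted lines mark a 1.5-fold change of FPKM + 1 (0.585).

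Among the receptors of bile acid metabolism, *Nr0b2* had the lowest log2 difference of all members. It encodes SHP, a receptor without a DNA-binding domain that is induced through FXR and represses *Cyp7a1*, the rate-limiting enzyme of bile acid synthesis. *Nr0b2* ranged from 23.8 to 63.4 FPKM (median 35.1) in the *Fgl1* LWT group and from 9.24 to 60.6 FPKM (median 30.0) in *Fgl1* LKO mice. The lowest mice, *Fgl1* LKO 8, *Fgl1* LKO 6 (13.03 FPKM) and *Fgl1* LKO 5 (23.4 FPKM), lay below all *Fgl1* LWT mice, and the other 5 *Fgl1* LKO mice lay within their range. The log2 difference was -0.51 (SE 0.32, unadjusted p = 0.125, adjusted p = 0.722 from limma, exact permutation p = 0.172). With a term for the run it was -0.94 (unadjusted p = 0.00567, adjusted p = 0.520 from limma), and it was -0.31 without *Fgl1* LKO 8. Within the runs that held both genotypes, the difference was -0.51, -1.09 and -1.09 in the order of the mouse numbers, with 1 *Fgl1* LWT mouse in the first of these runs. In the run 69 to 72, *Fgl1* LKO 7 (32.3 FPKM) lay between the *Fgl1* LWT mice (31.8 and 46.4 FPKM), and *Fgl1* LKO 8 was at 9.24 FPKM. *Nr1h4* was at 61.6 ± 10.7 FPKM in *Fgl1* LWT mice and 67.7 ± 8.05 FPKM in *Fgl1* LKO mice (SD, n = 8 each), a log2 difference of 0.14 (adjusted p = 0.751 from limma). *Nr5a2*, which encodes LRH-1, an activator of bile acid synthesis genes, was at 12.3 ± 2.28 and 11.4 ± 1.17 FPKM. Its log2 difference of -0.09 became 0.03 with the run as a term.

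The oxysterol receptors *Nr1h3* (LXRα) and *Nr1h2* (LXRβ) were among the steadiest members. *Nr1h3* had the smallest residual SD of the 28 members with a mean of at least 1 FPKM, with values between 43.4 and 56.0 FPKM (median 52.1) in the *Fgl1* LWT group and between 46.4 and 60.2 FPKM (median 49.6) in *Fgl1* LKO mice. Its highest mouse was 1.39 times its lowest, and the residual SD was 0.125 on the log2 scale. The log2 difference of 0.00 between genotypes had a 95% interval of -0.14 to 0.14. *Nr1h2* was between 14.0 and 23.4 FPKM over the 16 mice, with a log2 difference of 0.04.

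The receptors for drugs and other foreign compounds were more variable. *Nr1i3* encodes CAR, which induces enzymes of drug metabolism such as *Cyp2b10*, and it ranged from 38.9 to 109 FPKM (median 48.9) in the *Fgl1* LWT group and from 38.1 to 122 FPKM (median 49.9) in *Fgl1* LKO mice. The 4 highest mice were *Fgl1* LKO 6 and all 3 mice of the first run (36 to 38), and the other 12 lay between 38.1 and 69.5 FPKM. The log2 difference between genotypes was -0.13 (adjusted p = 0.920 from limma) and turned to 0.34 with the run as a term (unadjusted p = 0.161). *Nr1i2*, which encodes PXR, the receptor that induces *Cyp3a11*, ranged from 18.0 to 29.7 FPKM (median 26.1) in the *Fgl1* LWT group and from 14.8 to 34.6 FPKM (median 24.2) in *Fgl1* LKO mice. The genotypes overlapped widely, and *Fgl1* LKO mice held both the highest and the lowest value. Its log2 difference was -0.07 (adjusted p = 0.922 from limma).

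Of the fatty acid receptors, *Ppard* and *Pparg* were members and *Ppara* was not, so that its level is not described here. *Ppard* and *Pparg* were at lower levels. *Ppard* was the second most variable member, between 2.59 and 15.7 FPKM (median 6.60) in the *Fgl1* LWT group and between 4.00 and 15.8 FPKM (median 6.51) in *Fgl1* LKO mice. *Fgl1* LWT 4, *Fgl1* LKO 1 and *Fgl1* LKO 4 were each above 15 FPKM, and the log2 difference of 0.10 had a 95% interval of -0.52 to 0.73. *Pparg*, the receptor that promotes fat storage, was at 2.37 ± 0.51 FPKM in *Fgl1* LWT mice and 2.81 ± 1.00 FPKM in *Fgl1* LKO mice, with the highest value of 4.48 FPKM in *Fgl1* LKO 8. Its log2 difference of 0.15 (unadjusted p = 0.300) was 0.33 with the run as a term (unadjusted p = 0.0234, adjusted p = 0.560 from limma).

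The partner *Rxrg* had the second lowest difference of all members. It was at 3.57 ± 1.00 FPKM in *Fgl1* LWT mice and 2.74 ± 1.15 FPKM in *Fgl1* LKO mice, a log2 difference of -0.32 (unadjusted p = 0.0893, adjusted p = 0.707 from limma) that was -0.18 with the run as a term. The other retinoid X receptors differed by 0.15 (*Rxra*) and 0.11 (*Rxrb*) on the log2 scale, with adjusted p-values of 0.774 and 0.751 in limma. For *Rxra* the difference was 0.09 without *Fgl1* LKO 8.

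Of the steroid receptors, *Esr1*, which encodes estrogen receptor α, had the highest log2 difference and the smallest limma p of all members, whereas the smallest exact permutation p belonged to *Hnf4g* (0.0645). It was between 1.78 and 5.26 FPKM (median 3.09) in the *Fgl1* LWT group and between 3.27 and 4.62 FPKM (median 3.84) in *Fgl1* LKO mice. The *Fgl1* LKO range lay inside the *Fgl1* LWT range, and the log2 difference of 0.24 had an unadjusted p of 0.0802 and an adjusted p of 0.707 (limma). With the run as a term it was 0.16. *Nr3c1*, the glucocorticoid receptor, ranged from 9.72 to 15.3 FPKM (median 12.4) in the *Fgl1* LWT group and from 10.6 to 12.8 FPKM (median 11.6) in *Fgl1* LKO mice. It had the second smallest spread of the members at 1 FPKM or more (residual SD 0.141) and a log2 difference of -0.10 (adjusted p = 0.777 from limma). *Nr3c2*, the mineralocorticoid receptor, ranged from 1.12 to 2.52 FPKM (median 2.03) in the *Fgl1* LWT group and from 1.40 to 3.04 FPKM (median 2.08) in *Fgl1* LKO mice. The difference of 0.05 had an adjusted p of 0.935 (limma).

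Thyroid hormone receptors were expressed at similar mean levels, 7.13 FPKM for *Thra* and 5.40 FPKM for *Thrb*. *Thra* ranged from 5.01 to 8.80 FPKM (median 7.87) in the *Fgl1* LWT group and from 4.77 to 9.87 FPKM (median 6.55) in *Fgl1* LKO mice. *Thrb*, the form through which thyroid hormone acts in hepatocytes, ranged from 4.33 to 7.56 FPKM (median 5.53) in the *Fgl1* LWT group and from 1.99 to 6.94 FPKM (median 5.36) in *Fgl1* LKO mice. The genotypes overlapped for both, and *Fgl1* LKO 8 was the lowest mouse of both. The log2 difference of *Thrb* was -0.20 (adjusted p = 0.785 from limma) and -0.06 without that mouse. Of the retinoic acid receptors, *Rara* had a mean of 5.81 FPKM, *Rarg* of 1.86 and *Rarb* of 0.94, with log2 differences of 0.05, -0.06 and -0.13. None of these had an adjusted p under 0.839 in limma.

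The orphan receptors, for which a ligand is unknown or was found late, were spread over the whole range of levels. *Nr2f6* (EAR2) had a mean of 41.8 FPKM and a log2 difference of 0.01. *Esrra*, which encodes ERRα, a regulator of mitochondrial genes, was at 12.4 ± 1.03 FPKM in *Fgl1* LWT mice and 11.6 ± 3.49 FPKM in *Fgl1* LKO mice. Its log2 difference of -0.14 became 0.01 without *Fgl1* LKO 8, in which *Esrra* was at 4.79 FPKM. *Rora*, a receptor that acts on clock and metabolic genes, ranged from 4.55 to 9.01 FPKM (median 6.42) in the *Fgl1* LWT group and from 5.03 to 7.57 FPKM (median 6.31) in *Fgl1* LKO mice. The *Fgl1* LKO range lay inside that of the *Fgl1* LWT mice. *Nr2c1* (TR2) and *Nr2c2* (TR4), which are close paralogs, had means of 3.60 and 4.01 FPKM. *Nr2c1* had the third smallest residual SD of the members at 1 FPKM or more, with values between 2.91 and 4.27 FPKM (median 3.49) in the *Fgl1* LWT group and between 2.98 and 4.29 FPKM (median 3.64) in *Fgl1* LKO mice. *Nr2c2* was between 2.97 and 4.85 FPKM (median 4.00) in the *Fgl1* LWT group and between 3.39 and 4.88 FPKM (median 3.85) in *Fgl1* LKO mice. Both genes overlapped almost fully between genotypes. *Nr2f2* (COUP-TFII) ranged from 3.04 to 6.56 FPKM (median 4.51) in the *Fgl1* LWT group and from 2.57 to 6.74 FPKM (median 3.51) in *Fgl1* LKO mice. Its log2 difference of -0.23 (adjusted p = 0.759 from limma) was -0.02 with the run as a term. The paralog *Nr2f1* (COUP-TFI) had a mean of 0.27 FPKM. *Nr6a1*, known from germ cells, was at 1.99 FPKM on average, and *Nr4a1*, an immediate early gene, at 1.06 FPKM, with a range from 0.26 to 3.69 FPKM of which both ends lay in *Fgl1* LWT mice.

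Members varied between mice more than most genes. The residual SD within genotype, on the log2(FPKM + 1) scale, was above the median of all genes tested (0.171) for 24 of the 31 members, and the median of the members was 0.255. The most variable of the 28 members with a mean of at least 1 FPKM were *Nr0b2* (0.707), *Ppard* (0.663) and *Nr1i3* (0.585), and the least variable were *Nr1h3* (0.125), *Nr3c1* (0.141) and *Nr2c1* (0.142). The FPKM of *Nr0b2* in the highest mouse was 6.86 times that in the lowest.

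Among these 28 members there were 378 pairs, whose Pearson r over the 16 mice had a median of 0.13. The values that follow are the highest and lowest of all pairs, and they are given as a description without a test. *Nr1i3* and *Nr2f2* were the most alike (r = 0.85, Spearman rho 0.72), and r was 0.82 after removal of genotype and run and 0.81 without *Fgl1* LKO 6, the mouse in which both were highest. *Nr1i2* and *Rora* followed (r = 0.71), and their r was 0.32 after removal of genotype and run. The most opposed were *Hnf4a* and *Esrra*, with r = -0.83 (rho -0.86). *Fgl1* LKO 8 was at one end of both, and without it r was -0.72. *Thrb* and *Esrra* had r = 0.68, but -0.01 without *Fgl1* LKO 8.

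**Figure D3:**
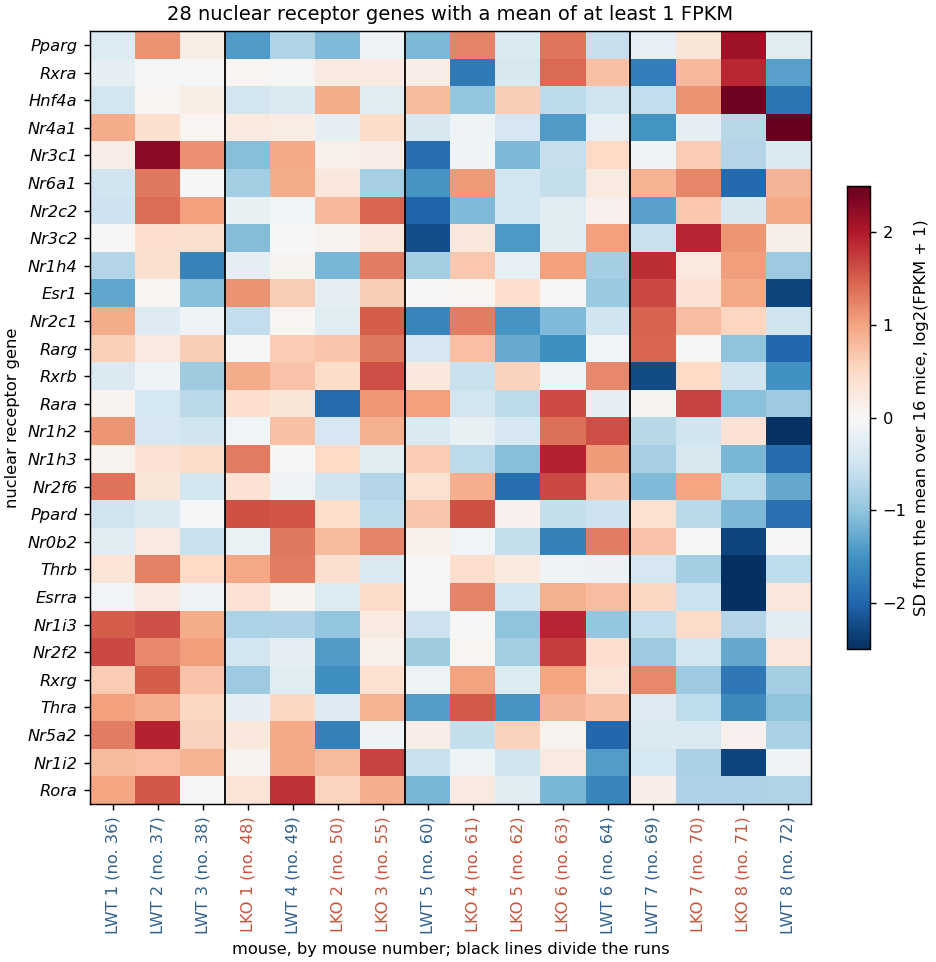
Deviation of each of 28 nuclear receptor genes from its mean over 16 mice, in SD of log2(FPKM + 1), with mice ordered by mouse number and labelled in blue (*Fgl1* LWT) or red (*Fgl1* LKO), and genes ordered by likeness. *Hnf4a* is highest and *Esrra* lowest in *Fgl1* LKO 8, and *Nr1i3* and *Nr2f2* are both highest in *Fgl1* LKO 6 and next highest in the run 36 to 38.

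For *Nr0b2*, the genes with the most similar pattern over the 16 mice were *Ppia* (r = 0.82), *Entpd8* (0.81) and *9530068E07Rik* (0.81). *Nr1h4*, the receptor that induces *Nr0b2*, was not among them, with r = -0.12 over the 16 mice (permutation p = 0.649, Spearman rho -0.03, p = 0.917). Within genotypes, r was 0.46 in *Fgl1* LWT mice (exact permutation p = 0.255) and -0.35 in *Fgl1* LKO mice (exact permutation p = 0.392).

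The mice differed widely in *Saa1*, an acute-phase gene that is induced by inflammation, from 63.8 to 16268 FPKM, in both genotypes. The slope of each gene on log2(Saa1 + 1) was estimated with genotype in the model, and a slope is the change of log2(FPKM + 1) per unit of log2(Saa1 + 1). Of the 31 members, 0 passed an adjusted p of 0.05, against 1.65% of all genes. An unadjusted p under 0.05 with lower levels at higher *Saa1* was found for 8 members, compared with 15% of all genes, and the opposite direction for 0 members, compared with 3.27% of all genes. The slope was negative for 27 of the 31 members and for 8746 of the 12769 genes tested. The 8 members were *Thra*, *Nr3c1*, *Nr2f2*, *Nr2c2*, *Nr3c2*, *Nr1i3*, *Nr1i2* and *Rora*. They numbered 4 after median-ratio scaling or quantile normalization and 2, *Thra* and *Nr3c2*, with a term for the run of mouse numbers. *Saa1* was at or below 252.3 FPKM in 7 mice and at or above 938.4 FPKM in the other 9, so that no correlation is given over the 16 mice.

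*Thra* had the smallest p, with a slope of -0.07 (SE 0.02, unadjusted p = 0.00365, adjusted p = 0.0877 from limma). It became significant without *Fgl1* LKO 6 (adjusted p = 0.0473) or without *Fgl1* LKO 7 (adjusted p = 0.0452). Within the 7 mice of low *Saa1*, r between *Thra* and log2(Saa1 + 1) was -0.11 (exact permutation p = 0.804, rho -0.11, p = 0.840), and within the 9 mice of high *Saa1* it was -0.41 (exact permutation p = 0.268, rho -0.31, p = 0.415). The relation of *Thra* was thus not detected within either set of mice. The genes most alike to *Thra* in pattern included *Suox* (r = 0.93) and *Pex5* (0.92).

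*Nr3c1* had a slope of -0.04 (SE 0.01, unadjusted p = 0.00367, adjusted p = 0.0881 from limma), and passed the threshold when each mouse was rescaled to an equal FPKM sum (adjusted p = 0.0488). Its 3 highest mice, at 13.3 to 15.3 FPKM, were all at or below 124 FPKM of *Saa1*, and its lowest mouse, *Fgl1* LWT 5, was at 13092 FPKM. Within the sets of low and high *Saa1*, r was -0.36 (exact permutation p = 0.429) and -0.47 (exact permutation p = 0.202), with rho of -0.22 (p = 0.637) and -0.35 (p = 0.359). *Cbfa2t2* (r = 0.89), *Haus2* (0.87) and *Mpzl1* (0.86) were the most alike in pattern.

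*Nr2f2* had a slope of -0.07 (unadjusted p = 0.0137, adjusted p = 0.157 from limma). Without *Fgl1* LKO 6, in which it was highest, the slope was -0.08 (adjusted p = 0.0147), and *Nr1i3*, with -0.11 (adjusted p = 0.190), also became significant (adjusted p = 0.0319). Within the sets of low and high *Saa1*, r of *Nr2f2* was -0.73 (exact permutation p = 0.0679, rho -0.79, p = 0.0480) and -0.46 (exact permutation p = 0.215, rho -0.53, p = 0.148). Without the run 36 to 38 its slope was -0.04 (unadjusted p = 0.220). *Nr2f2* is also expressed in endothelial cells. Of 6 markers of sinusoidal endothelial cells, all had a negative slope with an unadjusted p under 0.05 (15% of all genes). *Stab2* (adjusted p = 0.0493 from limma) and *Kdr* (adjusted p = 0.0201) passed the threshold. All 6 also had an unadjusted p under 0.05 for the run of mouse numbers (17.6% of all genes). Of 7 stellate cell markers, 7 had a negative slope, 4 of them with an unadjusted p under 0.05. Hepatocyte markers also fell with *Saa1*, since 5 of 6 had a negative slope, 3 of them with an unadjusted p under 0.05. The endothelial markers summed to between 36.7 and 87.4 FPKM in *Fgl1* LWT mice and between 26.2 and 103.9 FPKM in *Fgl1* LKO mice, with none at 0 in every mouse. The part of endothelial cells, stellate cells and hepatocytes in the slope of *Nr2f2* was not tested. In bulk liver, fewer cells of a type and less RNA per cell cannot be told apart. The genes most alike to *Nr2f2* were *Apoh* (r = 0.92), *Zfand2b* (0.91) and *Gna12* (0.90).

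*Nr2c2* had a slope of -0.04 (unadjusted p = 0.0181, adjusted p = 0.176 from limma) and *Nr3c2* of -0.05 (unadjusted p = 0.0187, adjusted p = 0.178). Within the 9 mice of high *Saa1*, r was -0.78 for *Nr2c2* (exact permutation p = 0.0128, adjusted over 8 relations 0.103, rho -0.77, p = 0.0214) and -0.66 for *Nr3c2* (exact permutation p = 0.0557, adjusted 0.223, rho -0.65, p = 0.0666). Within the 7 mice of low *Saa1* the signs differed, with -0.58 for *Nr2c2* (exact permutation p = 0.182, rho -0.32, p = 0.498) and 0.40 for *Nr3c2* (exact permutation p = 0.358, rho 0.22, p = 0.636). *Hykk* (r = 0.89), *Zfp729b* (0.87) and *Ubxn7* (0.86) were most alike to *Nr2c2*, and *Psd3* (0.83), *Tesk2* (0.82) and *Sgk2* (0.81) to *Nr3c2*. For the 8 members within these sets of mice, 0 of the adjusted permutation p-values were under 0.05.

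**Figure D4:**
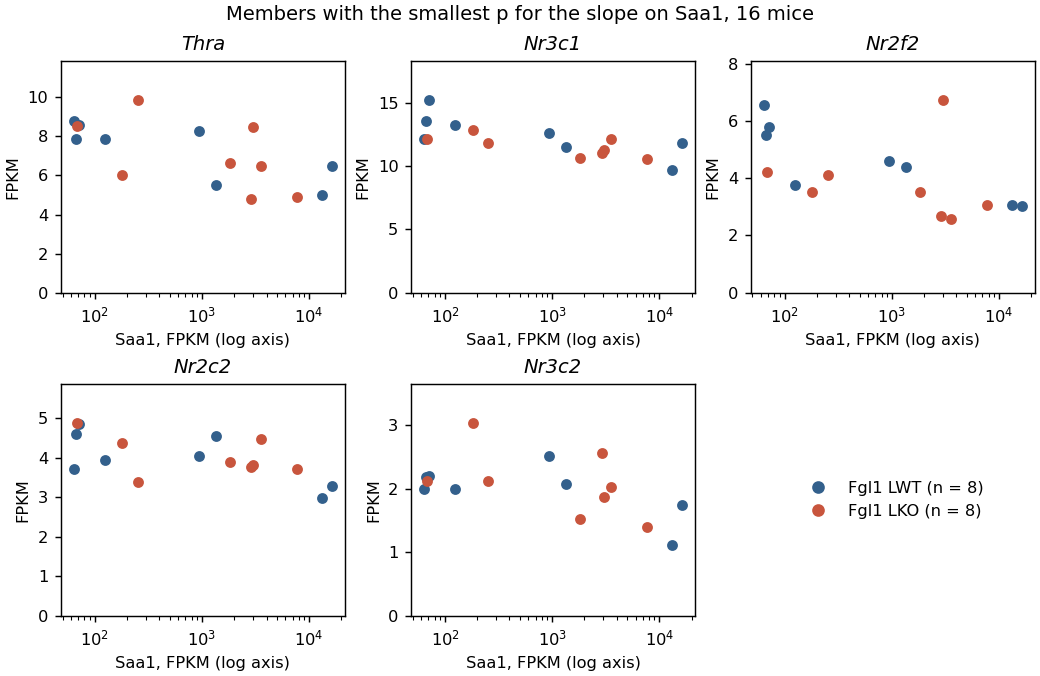
FPKM of the 5 nuclear receptor genes with the smallest p for the slope on *Saa1*, against the *Saa1* FPKM of the same mouse (log axis), 1 point per mouse. The levels of *Nr3c1* and *Nr2c2* are lowest in *Fgl1* LWT 5 (13092 FPKM of *Saa1*). *Nr2f2* is highest in *Fgl1* LKO 6 (6.74 FPKM), close to *Fgl1* LWT 1 (6.56 FPKM).

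The run of mouse numbers was tested with genotype in the model. Of the 31 members, 0 passed an adjusted p of 0.05 (0.102% of all genes), and 7 had an unadjusted p under 0.05 (17.6% of all genes). These were *Nr1i2*, *Thrb*, *Rora*, *Nr1i3*, *Nr0b2*, *Pparg* and *Nr2f2*. *Nr1i2* had the smallest p (unadjusted p = 0.00398, adjusted p = 0.122 from limma), with run means of 28.8, 29.4, 22.1 and 20.3 FPKM in the order of the mouse numbers. *Thrb* followed (unadjusted p = 0.00446) with 6.45, 6.27, 5.38 and 3.75 FPKM, and *Rora* (unadjusted p = 0.00546) with 7.51, 7.61, 5.45 and 5.72 FPKM. For all 3 genes the first pair of runs was above the last pair in mean level. *Nr1i3* had run means of 98.9, 46.2, 60.6 and 52.1 FPKM (unadjusted p = 0.00921), with the first run between 82.7 and 109 FPKM. Since the first run held *Fgl1* LWT mice only, run and genotype cannot be told apart there.

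Textbook targets of the receptors were set against the receptors in 13 pairs over the 16 mice, with permutation p-values adjusted over the 13 pairs. Of these, 3 had an adjusted p under 0.05. The tests were two-sided and counted either sign of r, so that a low p does not show a target following its receptor. *Rarb* and *Cyp26a1*, the enzyme that degrades retinoic acid and is induced by it, had r = 0.75 (p = 0.000940, adjusted p = 0.0122) and rho 0.73 (p = 0.00172, adjusted p = 0.0224). Without the 2 mice farthest from the median of *Rarb*, r was 0.72 (adjusted p = 0.0552), and it was 0.78 within each genotype and 0.81 after removal of genotype and run. *Cyp26a1* ranged from 0.47 to 9.69 FPKM in *Fgl1* LWT mice and from 0.50 to 29.2 FPKM in *Fgl1* LKO mice, and *Rarb* from 0.51 to 2.04 and from 0.36 to 1.52 FPKM. Within genotypes the adjusted p was 0.191 in *Fgl1* LWT mice and 0.186 in *Fgl1* LKO mice (exact permutation over 8 mice each). Single mice departed from the relation, since *Fgl1* LKO 8 had the lowest *Rarb* but not the lowest *Cyp26a1* (1.66 FPKM). Runs held too few mice for an r of their own.

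*Rora* and *Cyp7b1*, an oxysterol hydroxylase, had a negative r of -0.63 (p = 0.00885, adjusted p = 0.0383) with rho -0.58 (p = 0.0205, adjusted p = 0.0955). The adjusted p was above 0.05 after median-ratio scaling, after removal of genotype and run (r = -0.59, adjusted p = 0.0579) or of genotype and *Saa1* (r = -0.49), and when any of 9 single mice was left out. Without the 2 mice farthest from the median of *Rora*, r was -0.66 (adjusted p = 0.0802). Within genotypes, r was -0.81 in *Fgl1* LWT mice (exact permutation p = 0.0165) and -0.26 in *Fgl1* LKO mice (exact permutation p = 0.515), a difference that was not tested. *Esrra* and *Idh3a*, a mitochondrial enzyme of the citric acid cycle, had r = 0.65 (p = 0.00720, adjusted p = 0.0383) with rho 0.43 (p = 0.0978). This relation rested on few mice, since r was 0.30 (permutation p = 0.298) without the 2 mice farthest from the median of *Esrra* and 0.35 (permutation p = 0.206) without *Fgl1* LKO 8, and it was 0.65 after removal of genotype and run. Its adjusted p was above 0.05 when any of 8 single mice was left out.

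The other 10 pairs had adjusted p-values of at least 0.176. *Nr1i3* and *Cyp2b10* had r = 0.40 (p = 0.126) and rho 0.57 (p = 0.0220, adjusted p = 0.0955), and r = 0.70 after removal of genotype and run. The permutation p of this last r (0.00292, adjusted p = 0.0190) does not count the removed terms. It is therefore too small, and the pair is not taken to pass the threshold. *Cyp2b10* was low, with 1.10 FPKM at most, and without the 2 mice farthest from the median of *Nr1i3*, r was 0.16 (permutation p = 0.600). *Nr0b2* and *Cyp7a1* had r = -0.40 (p = 0.127, rho -0.27, p = 0.310) and -0.03 after removal of genotype and run (p = 0.915). *Nr1i2* and *Cyp3a11* had r = -0.47 (p = 0.0617, rho -0.41, p = 0.117), and *Pparg* and *Cidec*, a lipid droplet protein, r = 0.46 (p = 0.0678, rho -0.05, p = 0.845), which was -0.03 without *Fgl1* LKO 8. For the remaining 6 pairs, *Nr1h4* with *Nr0b2* and *Abcb11*, *Nr1h3* with *Abcg5*, *Nr3c1* with *Fkbp5*, *Thrb* with *Dio1*, and *Nr5a2* with *Cyp8b1*, r lay between -0.12 and 0.04. Within genotypes, r of *Nr3c1* and *Fkbp5* was 0.21 in *Fgl1* LWT mice (exact permutation p = 0.618) and 0.53 in *Fgl1* LKO mice (exact permutation p = 0.171). That of *Nr1h4* and *Abcb11* was 0.50 (exact permutation p = 0.203) and -0.32 (exact permutation p = 0.434).

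**Figure D5:**
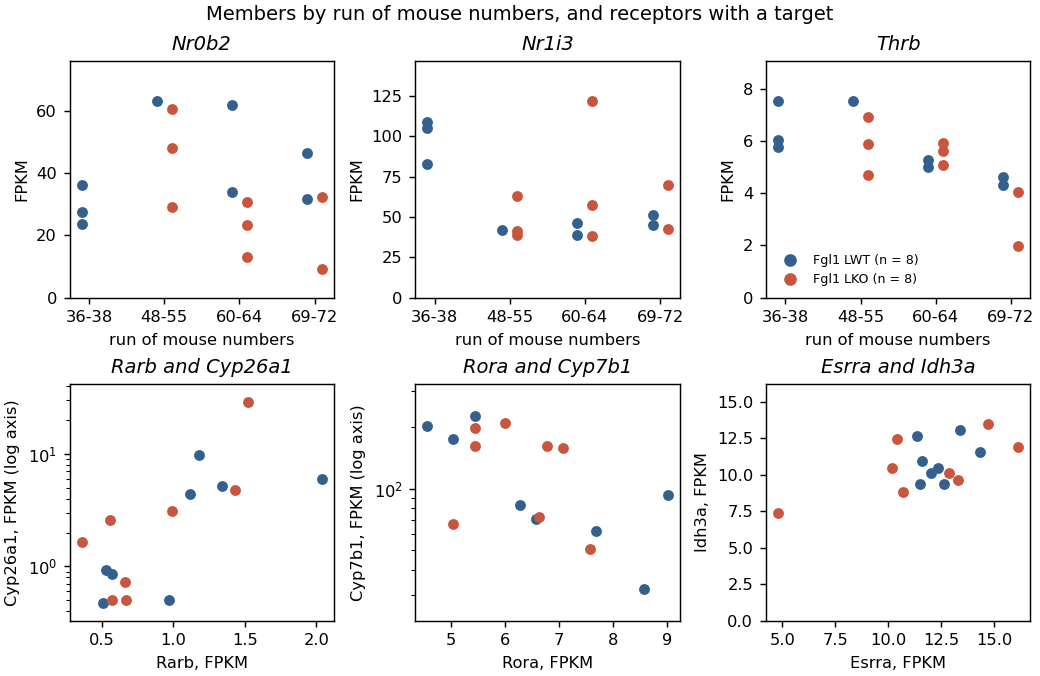
Above, FPKM of *Nr0b2*, *Nr1i3* and *Thrb* by run of mouse numbers, and below, FPKM of 3 targets against that of their receptors, 1 point per mouse (log axis for *Cyp26a1* and *Cyp7b1*). *Nr1i3* is between 82.7 and 109 FPKM in the first run, and the mouse at the lower left of the plot of *Esrra* and *Idh3a* is *Fgl1* LKO 8.

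The other genes of the nuclear receptor system were compared in the same way. Of the other receptor genes of the family examined, 4 passed the filter on low values (*Nr1d1*, *Nr1d2*, *Esrrb* and *Esrrg*), and 0 of them had an unadjusted p under 0.05. Of 14 coactivators, 1 was higher in *Fgl1* LKO mice at an unadjusted p under 0.05 and 0 were lower. This was *Ncoa2*, with 6.82 ± 0.74 FPKM in *Fgl1* LWT mice and 7.81 ± 0.53 FPKM in *Fgl1* LKO mice (SD, n = 8 each, adjusted p = 0.696 from limma). Of 9 corepressors, 2 were higher (*Lcor*, with a log2 difference of 0.16, and *Hr*, with 0.13) and 0 were lower. None of the 96 receptor, coregulator and target genes outside the 31 members passed the adjusted threshold for genotype, and 10 were higher and 2 lower at an unadjusted p under 0.05, against 593 and 302 of 12769 genes.

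By target list, the genes with an unadjusted genotype p under 0.05, which 7.01% of all genes had, numbered 0 to 3. Of 7 FXR targets, *Abcb4*, the phospholipid transporter of bile, was higher (0.18), and of 9 LXR targets, the sterol transporters *Abcg5* (-0.47) and *Abcg8* (-0.46) were lower and *Pltp* (0.46) was higher, as log2 differences in *Fgl1* LKO against *Fgl1* LWT mice. Of 10 CAR and PXR targets, *Por*, which passes electrons to cytochromes P450, was higher with 55.1 ± 10.7 FPKM in *Fgl1* LWT mice and 76.2 ± 14.7 FPKM in *Fgl1* LKO mice (log2 difference 0.46, unadjusted p = 0.00300, adjusted p = 0.696 from limma). Of 9 glucocorticoid receptor targets, *Fkbp5*, which is induced by glucocorticoids, was higher with 8.06 ± 2.90 and 16.3 ± 7.72 FPKM (log2 difference 0.87, unadjusted p = 0.00353, adjusted p = 0.696 from limma). *Nr3c1*, its receptor, was at 12.5 ± 1.62 and 11.6 ± 0.80 FPKM in the same mice. *Gpd2*, of 6 thyroid hormone targets, and *Plin4* and *Mogat1*, of 7 targets listed for *Pparg* and *Ppard*, were higher, with log2 differences of 0.28, 0.28 and 0.18. Of 6 retinoic acid, 8 *Hnf4a*, 6 *Rora* and 5 *Esrra* targets, 0 had an unadjusted p under 0.05.

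For the slope on *Saa1*, 5 of the 96 genes passed the adjusted threshold (1.65% of all genes), and all 5 were lower at higher *Saa1*, as were 132 of the 211 called among all genes. They were the coactivator *Ppargc1b* (slope -0.08, adjusted p = 0.0493 from limma), the LXR target *Mylip* (-0.11, 0.0219), the CAR and PXR targets *Gstm1* (-0.08, 0.0399) and *Abcc2* (-0.07, 0.0402), and *Ttr* (-0.07, 0.0210), the thyroid hormone carrier and a target of *Hnf4a*. *Hnf4a* itself had a slope of 0.01 (adjusted p = 0.814 from limma) and *Nr1i3* of -0.11 (adjusted p = 0.190). All 7 acute-phase genes of the list rose with *Saa1*, namely *Saa2*, *Saa3*, *Orm1*, *Orm2*, *Lcn2*, *Hp* and *Fgl1* itself, with slopes from 0.26 for *Hp* to 1.15 for *Saa2*. Beside *Stab2* and *Kdr*, the cell type markers past this threshold were *Ttr*, the urea cycle enzyme *Cps1* (slope -0.06, adjusted p = 0.0210 from limma) and the neutrophil gene *S100a8* (0.33, adjusted p = 0.0491). The acute-phase genes took a summed 3062 to 52939 FPKM per mouse, and their part in the lower FPKM of other genes was not tested.

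The most abundant gene of each target list did not pass the adjusted threshold for genotype either. *Slc10a1*, the bile acid importer and FXR target, was at 447 ± 41.3 FPKM in *Fgl1* LWT mice and 420 ± 122 FPKM in *Fgl1* LKO mice, and *Scd1*, the desaturase induced through LXR, at 1499 ± 686 and 2069 ± 1377 FPKM. *Pck1*, a glucocorticoid target of glucose production, was at 883 ± 371 and 944 ± 218 FPKM, and *Thrsp*, named for its response to thyroid hormone, at 240 ± 231 and 348 ± 384 FPKM. The spread between mice within a genotype was larger than the difference for each of these 4 genes. The most abundant genes of the other target lists were *Gstm1*, *Ttr*, *Angptl4* (43.7 ± 18.5 and 67.5 ± 30.1 FPKM), *Dhrs3* (73.0 ± 5.13 and 67.9 ± 16.4 FPKM), *Elovl3* (306 ± 147 and 294 ± 102 FPKM) and *Atp5b* (672 ± 52.4 and 682 ± 65.7 FPKM), with adjusted p-values of 0.709 and above in limma. Of cell type markers, 2 of 7 Kupffer cell genes, *Vsig4* and *Adgre1*, were higher in *Fgl1* LKO mice at an unadjusted p under 0.05 (7.01% of all genes, adjusted p = 0.696 for both in limma). For the run, 6 of these 7 genes had an unadjusted p under 0.05 (17.6% of all genes), and its part in the genotype difference was not tested. Their list summed to 73.1 to 153.3 FPKM in *Fgl1* LWT and 98.6 to 193.0 FPKM in *Fgl1* LKO mice, and *Nr1h3*, which Kupffer cells also express, had a log2 difference of 0.00.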

How the data were processed

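Liver polyA RNA of 16 mice was sequenced, 8 per genotype, from 1 mouse per library. The authors filtered the reads, used HISAT for alignment to mm39 and Bowtie2 for alignment to reference genes (versions and annotation release are not given in the sources used here), and deposited FPKM per gene, rounded to 2 decimals and written with decimal commas. These deposited FPKM already carry the scaling to transcript length and library size, and other values, such as numbers of reads, were not used here, so that depth is unknown. Of 17003 genes, the 12770 with a mean of at least 0.1 FPKM were kept. FPKM are not counts, and 1 was added before log2 was taken, which understates the change of low genes.

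Models were fitted over all genes with limma (version 3.58.1 in R 4.3.3, trended eBayes). Tests were two-sided, and p-values adjusted by Benjamini and Hochberg were read at 0.05. The models were for genotype, for the slope on log2(Saa1 + 1) of the same mouse with genotype as a term (12769 genes without *Saa1*), and for the run of mouse numbers with genotype as a term. Mouse 55 was placed in the run with 48 to 50, and the labels do not say what a run is. Exact permutation p-values of single genes came from all 12870 ways to divide the mice, and those of correlations from 100000 resamples (exact for fewer than 10 mice). Steps were tested on simulated data. Python 3.11.15, numpy 2.4.6, scipy 1.17.1 and pandas 2.3.3 were used.

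The members, the lists of targets, coregulators and cell type markers, the 13 pairs, the tests and the rule for named genes were chosen with earlier results of these data known. The rule names every member. It gives ranges for the 5 members with the smallest p for the slope on *Saa1*, the 3 with the smallest p for the run, the 3 most and 3 least variable of those at 1 FPKM or more and the 3 with the highest mean. Genes of the lists are named where an adjusted p was under 0.05 in any of the models, where the unadjusted genotype p was under 0.05, or where they head a target list or form a pair. Replicate numbers in the labels were not taken to pair the mice. Deviations of same-numbered mice correlated above 0.1 in 3 of 8 pairs, from -0.161 to 0.446. Their mean was 0.0728, against -0.00982 for mice of unlike number, and so few pairs cannot show whether the mice were paired. Alternatives were other pseudocounts, filters, scalings and covariates, and leaving out each mouse. Some genes of the other lists and of the patterns most alike are not reported here, and counts of these lists leave them out.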

Additional observations from a re-analysis of the deposited data

Results flagged for a closer look

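In *Fgl1* LKO 8, *Thrb* was at 1.99 FPKM, and the next lowest of the *Fgl1* LKO mice was at 4.05 FPKM, so that the gap took 0.537 of the range of the 8 mice on the log2(FPKM + 1) scale. In the same mouse, *Esrra* was at 4.79 FPKM, against 10.2 FPKM in the next lowest, a gap of 0.605 of the range. Both gaps were above Dixon's 95% critical value for a group of 8. Chance flags about 1 in 20 groups, and 2 of the 62 groups of 8 mice examined, 1 for each of 31 members and 2 genotypes, were flagged. The log2 differences between genotypes without this mouse were -0.06 for *Thrb* and 0.01 for *Esrra*.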

How the results depend on the processing

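The absence of a genotype call among the members held in every alternative tried, where the smallest adjusted p of a member was 0.483. Over all genes, 0 passed the threshold, and 1 did after rescaling to an equal sum per mouse, with a run term, with the replicate block, without the run 36 to 38 and at a threshold of 0.1, against 0 when any mouse was left out. The replicate numbers were not taken to pair the mice in the main models. The block brought the genes past the threshold for *Saa1* from 211 to 3 and the members with an unadjusted p under 0.05 from 8 to 3. It changed no other count or direction for which it was fitted. Members with an unadjusted genotype p under 0.05 numbered 1 with no filter (*Hnf4g*), 2 with a run term (*Nr0b2* and *Pparg*) and 0 to 2 with 1 mouse left out (1 without LWT 4, LWT 5 or LKO 3, and 2 without LWT 7, LWT 8, LKO 4 or LKO 6).

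For *Saa1*, the genes past the threshold numbered 140 with no filter, 133 after quantile normalization, 471 at an equal sum per mouse, 20 with a run term, 25 without the run 36 to 38 and 51 without the 2 mice farthest from the *Saa1* median. They numbered 45 (without LWT 5) to 463 (without LKO 7) with 1 mouse left out. Members past the threshold numbered 1 at an equal sum per mouse, and 0 to 3 with 1 mouse left out (3 without LKO 6, 1 without LKO 7). The 8 members with an unadjusted p under 0.05 became 4 after median-ratio scaling, 4 after quantile normalization, 2 with a run term, 4 without the run 36 to 38, 5 without the 2 farthest mice and 5 (without LWT 5 or LKO 3) to 10 with 1 mouse left out. For the run, the 13 genes became 8 at a pseudocount of 0.01, 8 after quantile normalization, 161 at an equal sum, 1 without the genotype term and 1 to 37 (highest without LKO 4) with 1 mouse left out. The 7 members with an unadjusted p under 0.05 became 11 at an equal sum and 5 to 9 with 1 mouse left out. The 3 pairs became 1 with Spearman's rho, 0 without the 2 mice farthest from the receptor median, 0 in LWT mice only, 0 in LKO mice only, and 1 (without LWT 1, LWT 2, LWT 6, LKO 4, LKO 7 or LKO 8) to 3 with 1 mouse left out. Dropping mice or adding terms leaves fewer degrees of freedom, and otherwise the cause was not tested.

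The log2 difference between genotypes kept its sign in all alternatives for 16 members, and changed it in at least 1 for 15, of which 0 passed the threshold in any. With median-ratio scaling it was -0.014 for *Nr1h3* and -0.0094 for *Nr2f6*. Quantile normalization gave -0.012 for *Nr1h3*, -0.0056 for *Nr2c1*, -0.0087 for *Nr2c2* and -0.0075 for *Nr2f6*, and a pseudocount of 0.01 gave 0.031 for *Nr2f1*. With a run term it was 0.34 for *Nr1i3*, 0.033 for *Nr5a2*, -0.14 for *Ppard* and 0.00035 for *Thra*. Without the run 36 to 38 it was 0.056 for *Nr1i2*, 0.29 for *Nr1i3*, 0.0098 for *Nr2f1*, 0.039 for *Nr5a2*, 0.048 for *Rora* and 0.050 for *Thra*. Leaving out 1 mouse gave -0.014 to 0.086 for *Nr1h2*, -0.029 to 0.024 for *Nr1h3*, -0.14 to 0.025 for *Nr1i2*, -0.010 to 0.051 for *Nr2c1*, -0.027 to 0.053 for *Nr2c2*, -0.049 to 0.013 for *Nr2f1* and -0.036 to 0.061 for *Nr2f6*. The same step gave -0.022 to 0.10 for *Nr3c2*, -0.062 to 0.25 for *Ppard*, -0.012 to 0.13 for *Rara*, -0.12 to 0.0020 for *Rora* and -0.21 to 0.0090 for *Esrra*.

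Of the pairs with an adjusted p above 0.05, r changed sign for *Nr1h4* and *Nr0b2* (0.0017 after removal of genotype, 0.092 after genotype and run, 0.014 after genotype and *Saa1*, 0.46 in LWT mice only, -0.27 to 0.063 with 1 mouse left out) and for *Nr1h4* and *Abcb11* (-0.32 in LKO mice only, -0.15 without the 2 farthest mice, -0.21 to 0.26 with 1 mouse left out). It did so for *Nr1h3* and *Abcg5* (-0.12 with median-ratio scaling, -0.25 after genotype and run, -0.074 as rho, -0.17 in LWT mice only, -0.23 to 0.26 with 1 mouse left out) and for *Nr3c1* and *Fkbp5* (-0.12 with median-ratio scaling, -0.031 after genotype and run, -0.063 as rho, -0.13 without the 2 farthest mice, -0.065 to 0.11 with 1 mouse left out). Further changes of sign were found for *Thrb* and *Dio1* (0.038 after genotype and run, -0.34 to 0.036 with 1 mouse left out), *Pparg* and *Cidec* (-0.053 as rho, -0.48 in LWT mice only, -0.033 to 0.55 with 1 mouse left out) and *Nr5a2* and *Cyp8b1* (0.0024 in LKO mice only). Read depth is unknown, values are rounded to 2 decimals, and 8 mice per genotype with unlabelled runs limit what can be separated.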
